A study of Mus musculus with 6 samples.

Results

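The matrix metalloproteinases (MMPs), the ADAMTS proteases, the ADAMTS-like (ADAMTSL) proteins and the tissue inhibitors of metalloproteinases (TIMPs) were followed in the lungs of smoke-exposed mice. They were chosen by gene symbol among the protein-coding genes of the count table, by a rule that uses no measured value. The rule gave 50 genes of the 55573 in the table, of which 22 were Mmp, 19 Adamts, 5 Adamtsl and 4 Timp genes. Lungs of the SS-31H_CS group (3 libraries) came from smoke-exposed mice given SS-31, a peptide antioxidant that concentrates in mitochondria, at 5 mg/kg once daily. They were compared with lungs of the CS group (3 libraries), from mice whose cigarette smoke exposure lasted 75 min per session, with 2 sessions a day on 5 days a week for 4 weeks. All were wild-type C57BL/6 mice aged 9 to 10 weeks, and RNA came from whole lung. The smoke schedule is given for the CS group alone, no smoke-free lungs were among the 6 libraries, and the labels do not say that each library came from a separate mouse, so p-values measure the spread between these libraries.

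MMPs are zinc-dependent proteases that are made as inactive precursors and together can cut most proteins of the extracellular matrix, including collagens, elastin and proteoglycans. ADAMTS proteases carry thrombospondin repeats that hold them in the matrix, where members trim procollagens, aggrecan, versican or von Willebrand factor, while ADAMTSL proteins share the repeats but have no protease domain and bind fibrillin microfibrils. TIMPs block the active site of MMPs, and in the lung the balance of proteases and inhibitors is studied because excess proteolysis accompanies smoke-induced emphysema.

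Library depth was even, at 15611925 to 17360052 total counts, and a floor of 3 counts equalled 0.172 to 0.185 CPM (counts scaled to a common library size by the TMM method). The lung identity genes were present in all libraries, with surfactant gene Sftpc at a mean of 14227 CPM in SS-31H_CS and 13302 CPM in CS. CS replicate 3 stood apart on the first principal component (48.1, against -37.3 to 12.3 in the other 5), where SS-31H_CS replicate 3 lay at the opposite end (-37.3). On the second component both replicate 3 libraries (-25.8 in SS-31H_CS and -20.5 in CS) lay away from the other 4 (8.18 to 15.7). CS replicate 3 had the highest CPM of the 6 libraries in 15 of the 40 tested members (37.5%), and it was the highest in 27.5% of all tested genes. It had the lowest CPM in 11 of the 40 (27.5%), where it was the lowest in 28.7% of all tested genes. CS replicate 1 was the highest in 10 of the 40 (25%) and in 8.70% of all tested genes. The replicate spread of the members was above that of all genes, with a median SD of log2(CPM + 1) of 0.25 in SS-31H_CS and 0.27 in CS, where all tested genes had 0.17 in both groups.

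Most of the message of the families lay in a few genes. Compared per length, on the authors' FPKM scale, 17 members averaged at least 10 FPKM over the 6 libraries and 28 averaged at least 1. The inhibitor gene Timp2 was highest at 180 ± 10.8 FPKM in SS-31H_CS and 157 ± 10.2 FPKM in CS (SD, n = 3 each), and it held 62.7% of the summed Timp FPKM. Timp3 followed at 64.1 ± 4.59 FPKM in SS-31H_CS and 97.8 ± 37.1 FPKM in CS. Among proteases the highest means were those of Mmp8 (47.0 FPKM over all libraries), Mmp9 (45.3 FPKM) and Adamts10 (37.4 FPKM), and the highest of the Adamtsl genes was Adamtsl4 (27.3 FPKM). Summed over the family, Mmp genes were at 227, 173 and 151 FPKM in SS-31H_CS replicates 1, 2 and 3, against 247, 207 and 258 FPKM in CS replicates 1, 2 and 3, with overlapping groups. Adamts genes summed to 101 ± 3.01 FPKM in SS-31H_CS and 114 ± 5.31 FPKM in CS, and in these sums the groups did not overlap. Within that sum Adamts15 was at 8.39 ± 1.83 FPKM in SS-31H_CS and 20.8 ± 5.76 FPKM in CS. Adamts10, its largest part, went the other way, at 40.9 ± 3.05 FPKM in SS-31H_CS and 34.0 ± 8.08 FPKM in CS. Adamtsl genes summed to 68.7, 54.0 and 56.0 FPKM in SS-31H_CS and 74.0, 66.8 and 80.6 FPKM in CS, with overlapping groups. Timp genes summed to 255 ± 8.17 FPKM in SS-31H_CS and 281 ± 42.8 FPKM in CS, with overlapping groups.

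**Figure D1:**
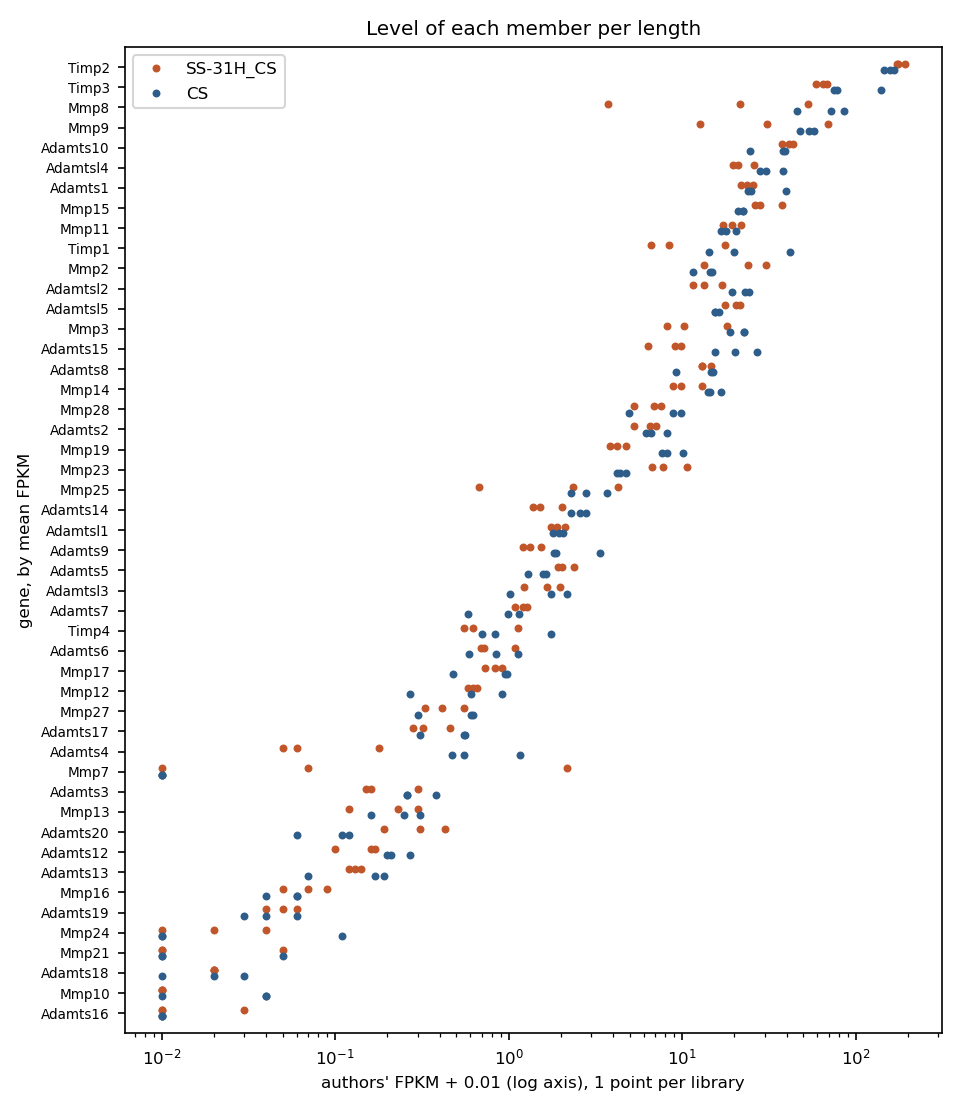
Level of each member with at least 1 count, as the authors' FPKM plus 0.01 on a log axis, with 1 point per library (SS-31H_CS above, CS below in each row) and genes ordered by mean FPKM. Timp2 and Timp3 lie at the top, and Mmp8 in SS-31H_CS spreads from 3.75 to 53.4 FPKM.

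Of the 50 members, 40 had enough counts to be tested and 10 did not, the most abundant untested one with 52 counts over all 6 libraries. In edgeR's quasi-likelihood test 0 of the 40 passed an adjusted p under 0.05, the threshold for a changed gene, where 0.153% of all 16965 tested genes passed. DESeq2 put 12 of 48 members past that threshold, and 939 of the 29395 genes given a p-value. By limma voom 0 of the 40 members and 6 of the 16965 genes passed. At an unadjusted p under 0.05 in edgeR there were 17 members (42.5%), where the share was 18.2% of all tested genes. Of these, 11 were lower in SS-31H_CS (27.5%, where 8.23% of all genes were) and 6 were higher (15%, where 9.93% were). In 16 of the 40 the groups did not overlap, where 26.1% of all genes showed none, with 11 lower in SS-31H_CS (27.5%, where 12.4% of all genes were) and 5 higher (12.5%, where 13.6% were). A log2 fold change below 0 was found in 28 of the 40 and in 48.6% of all genes. The median log2 fold change, SS-31H_CS over CS, was -0.30 over the tested members and 0.01 over all tested genes. These shares describe the members and no test was made of them, since the genes were picked with results from these libraries known and a low-count filter had removed some.

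**Figure D2:**
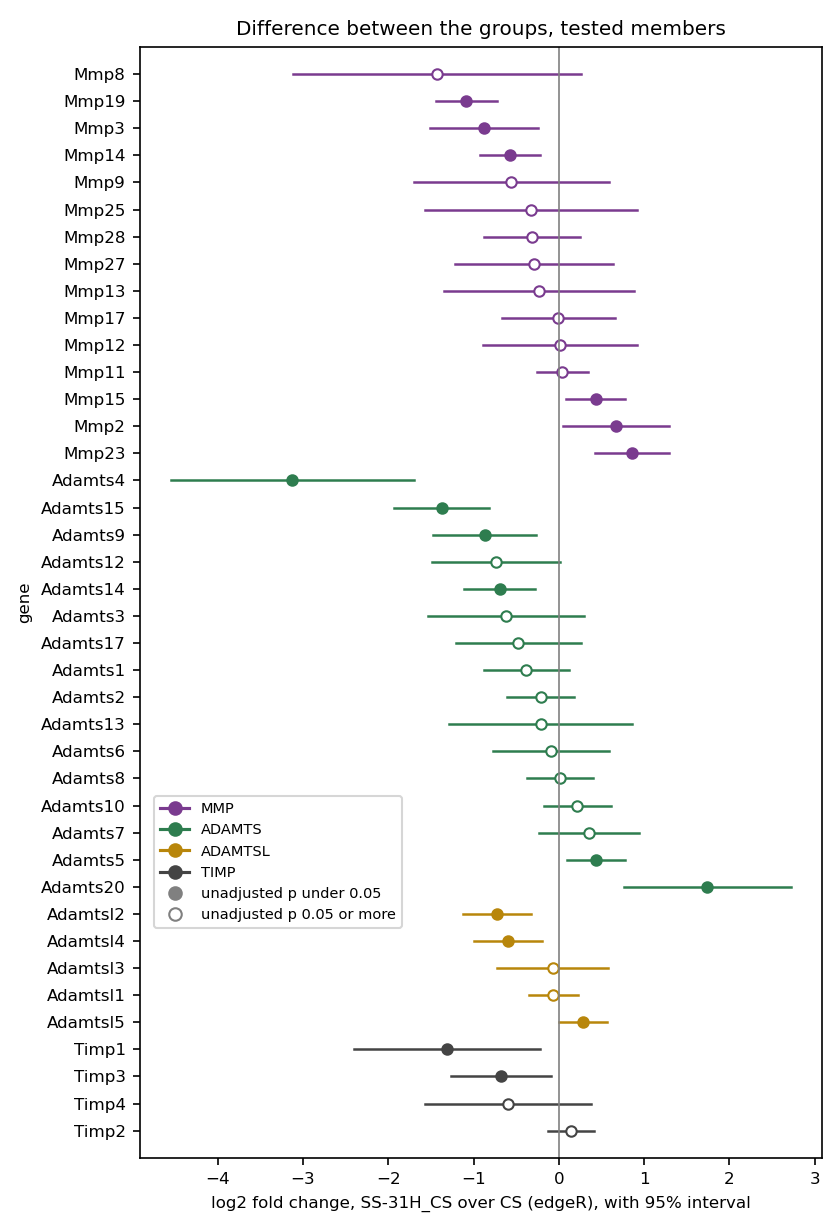
Log2 fold change (SS-31H_CS over CS, edgeR) of the 40 tested members with its 95% interval, by family. Filled points have an unadjusted p under 0.05 (17 members), and 0 of 40 passed after adjustment over all genes.

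Among the Mmp genes, Mmp19, Mmp3 and Mmp14 were lower and Mmp23, Mmp2 and Mmp15 were higher in SS-31H_CS at an unadjusted p under 0.05. After adjustment in edgeR 0 of the 6 passed. DESeq2 passed Mmp3, Mmp14, Mmp19 and Mmp23, and edgeR with no low-count filter passed Mmp3, Mmp19 and Mmp23. Mmp19, a secreted MMP that cuts basement membrane proteins (ENSMUSG00000025355, GRCm38 chromosome 10, 128790910 to 128800824), was at 16.7, 14.1 and 13.4 CPM in SS-31H_CS replicates 1, 2 and 3. The CS libraries held 36.2, 27.0 and 30.5 CPM in the same order of replicates. Each SS-31H_CS library was thus below each CS library. On the log2 scale the difference was -1.08 with an SE of 0.15 (adjusted p = 0.0554, edgeR quasi-likelihood F test, Benjamini-Hochberg), the lowest adjusted p of any member. Leaving out 1 library at a time gave -1.19 to -0.97. Exons of Tmem198b and Gm47093, on the other strand, together cover 28.3% of the exon length of Mmp19. Tmem198b itself was at a mean of 13.7 CPM in SS-31H_CS and 17.5 CPM in CS, and Gm47093 had 16 counts over all libraries. The strand setting of the counting is not given in the sources used here, so reads in that stretch could not be assigned.

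Mmp14 encodes the membrane-type protease MT1-MMP, which cuts collagen at the cell surface and activates the precursor of MMP2. It had 52.4, 74.4 and 58.7 CPM in the SS-31H_CS libraries, against 88.1, 83.1 and 105 CPM in the CS libraries, without overlap. The fitted log2 change was -0.57 with an SE of 0.16 (adjusted p = 0.140). Mmp2, the gelatinase that MT1-MMP activates, had a higher mean in SS-31H_CS, with 44.9, 76.9 and 103 CPM in SS-31H_CS against 50.8, 38.7 and 51.4 CPM in CS. Its groups overlapped, because SS-31H_CS replicate 1 lay among the CS libraries. The log2 fold change of 0.67 with an SE of 0.27 (adjusted p = 0.249) was 0.37 without SS-31H_CS replicate 3. Per length, Mmp2 was at 22.6 ± 8.66 FPKM in SS-31H_CS and 13.6 ± 1.80 FPKM in CS, and Mmp14 at 10.6 ± 2.22 FPKM in SS-31H_CS and 15.1 ± 1.42 FPKM in CS.

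Mmp15, the related membrane-type protease MT2-MMP, was at 141, 145 and 202 CPM in SS-31H_CS, against a narrow 122, 120 and 120 CPM in CS. The groups did not overlap, and the log2 fold change of 0.43 with an SE of 0.15 (adjusted p = 0.206) was 0.24 without SS-31H_CS replicate 3. Mmp23, a small cell-surface MMP that lacks the hemopexin domain of most of the family, was at 15.7, 23.9 and 18.0 CPM in SS-31H_CS and 10.3, 9.80 and 11.7 CPM in CS. Its log2 difference was 0.85 with an SE of 0.19 (adjusted p = 0.101), with 0.67 to 0.97 when 1 library was left out. Mmp11, stromelysin 3, which is activated inside the cell by furin, was at 53.4 ± 7.44 CPM in SS-31H_CS and 51.9 ± 4.16 CPM in CS. The 95% interval of its log2 difference was -0.25 to 0.34. Mmp28 (25.0 ± 4.53 CPM in SS-31H_CS and 31.0 ± 9.60 CPM in CS) and Mmp17 (5.30 ± 0.730 CPM in SS-31H_CS and 5.32 ± 1.78 CPM in CS) also had overlapping groups. The membrane-type genes Mmp16 and Mmp24 and the secreted Mmp21 had at most 12 counts in any library and were not tested.

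Summed CPM of 14 fibroblast markers was 4715 to 5310 in SS-31H_CS and 3391 to 4697 in CS, and Dcn and Col1a2 among them were higher at an unadjusted p under 0.05 while Pdgfra was lower. Summed CPM of 12 ciliated cell markers was 734 to 1139 in SS-31H_CS and 386 to 565 in CS, with 12 of 12 higher at an unadjusted p under 0.05. At that threshold 9.93% of all tested genes were higher and 8.23% lower. Smooth muscle and pericyte markers, 10 in number, summed to 776 to 1102 CPM in SS-31H_CS and 921 to 966 CPM in CS, and 8 cardiac muscle markers to 343 to 907 CPM in SS-31H_CS and 231 to 695 CPM in CS. In these 4 lists 0 markers were at zero. The part of any of these cell types in the Mmp values was not tested. In RNA from whole lung, fewer cells of a type and less RNA per cell cannot be told apart.

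The Mmp genes known from neutrophils put the libraries of each group in one order. Mmp8, the neutrophil collagenase, was at 129, 49.9 and 9.06 CPM in SS-31H_CS replicates 1, 2 and 3, against 177, 110 and 219 CPM in CS replicates 1, 2 and 3. Mmp9, gelatinase B, which neutrophils store in granules, was at 245, 103 and 44.3 CPM in SS-31H_CS and 193, 169 and 215 CPM in CS. Mmp25, the membrane-anchored leukolysin, was at 22.6, 11.8 and 3.47 CPM in SS-31H_CS, against 14.9, 12.0 and 20.4 CPM in CS. In all 3 genes SS-31H_CS had replicate 1 among the CS values or above them and replicate 3 far below, and in CS replicate 3 was highest and replicate 2 lowest. The log2 fold changes were -1.43 for Mmp8 with an SE of 0.73 (adjusted p = 0.346), -0.56 for Mmp9 with an SE of 0.50 (adjusted p = 0.581) and -0.32 for Mmp25 with an SE of 0.54 (adjusted p = 0.777). Leaving out SS-31H_CS replicate 1 gave -2.53 for Mmp8 and -1.39 for Mmp9, and leaving out SS-31H_CS replicate 3 gave -0.92 for Mmp8 and -0.15 for Mmp9. The 95% intervals, -3.11 to 0.26 for Mmp8 and -1.70 to 0.59 for Mmp9, both spanned 0.

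The summed CPM of 12 neutrophil markers, which hold no Mmp gene, was 3934, 2583 and 682 in SS-31H_CS replicates 1, 2 and 3, against 3625, 2876 and 4576 in CS replicates 1, 2 and 3. All 12 were detected and tested, and 0 passed after adjustment. At an unadjusted p under 0.05, 2 were lower (Il1r2 and Csf3r, 16.7%), where 8.23% of all tested genes were. The marker sum, in which S100a9 and S100a8 weigh most, put the libraries of each group in the same order as Mmp8, Mmp9 and Mmp25 did. Of the single markers, S100a8, S100a9, Retnlg, Ly6g and Il1r2 had that order and the other 7 did not, among them Ltf and Lcn2, which were highest within SS-31H_CS in replicate 2 (453 and 723 CPM). The part of neutrophil content in the Mmp values was not tested.

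**Figure D3:**
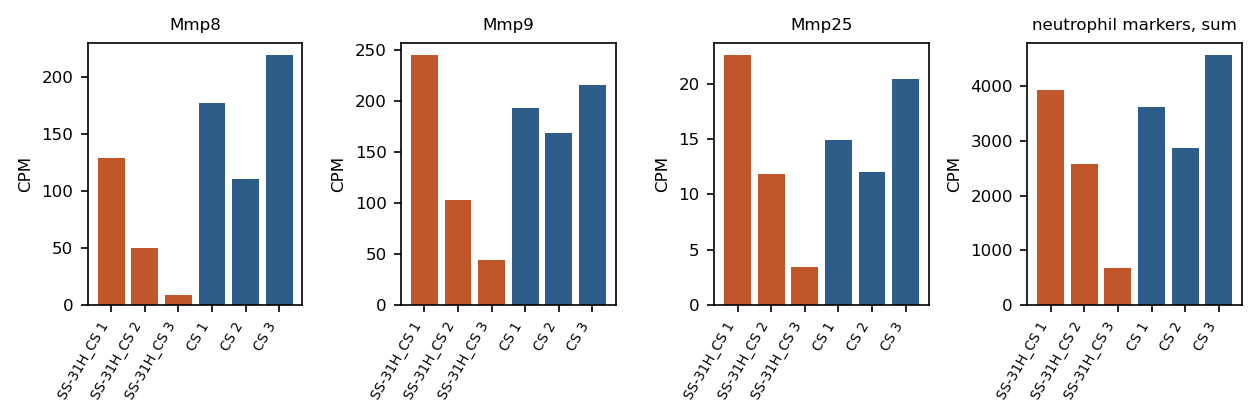
CPM of Mmp8, Mmp9 and Mmp25 and the summed CPM of 12 neutrophil markers in each library (bars from 0, SS-31H_CS left, CS right). SS-31H_CS replicate 3 is lowest in every panel, with 9.06 CPM of Mmp8 and 682 CPM of the marker sum.

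A cluster of 9 Mmp genes lies side by side on GRCm38 chromosome 9, between 7272514 and 7699585, and its members ranged from silent to abundant in these lungs. Mmp8 and Mmp3 were its abundant members. Mmp3, stromelysin 1, cuts proteoglycans and activates other MMP precursors, and was at 14.6, 17.5 and 32.4 CPM in SS-31H_CS against 41.4, 33.9 and 43.1 CPM in CS. The groups did not overlap, although SS-31H_CS replicate 3 came close to CS replicate 2. On the log2 scale the difference was -0.87 with an SE of 0.28 (adjusted p = 0.175). Dropping 1 library at a time gave -1.30 (SS-31H_CS replicate 3) to -0.67. Without replicate 3 of both groups it was -1.23, with an adjusted p of 0.0451 in a range of 0.0336 to 0.349 over the alternatives.

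Mmp12, the macrophage elastase whose loss protects mice from emphysema after smoke, was low throughout at 4.73, 4.22 and 4.12 CPM in SS-31H_CS and 6.61, 4.36 and 1.98 CPM in CS. CS replicates lay on both sides of the SS-31H_CS values, and the 95% interval of the log2 difference was -0.89 to 0.91. Summed CPM of 13 alveolar macrophage markers was 950 to 1340 in SS-31H_CS and 1829 to 2193 in CS. Much of that sum was Chil3, at 794, 679 and 429 CPM in SS-31H_CS replicates 1, 2 and 3, against 1400, 1222 and 1629 CPM in CS. All 13 had a log2 fold change below 0, with a median of -0.25. Car4 was also among the endothelial markers given below. Marco, Chil3, Mrc1 and Siglecf (30.8%) were lower at an unadjusted p under 0.05, where 8.23% of all tested genes were, and 0 of 13 were at zero. The part of macrophage content in the values of Mmp12 and the other Mmp genes was not tested. Mmp13, the main interstitial collagenase of the mouse, had 5, 12 and 10 counts in SS-31H_CS and 14, 7 and 11 counts in CS. Mmp27 was similarly low, at 0.912 ± 0.256 CPM in SS-31H_CS and 1.118 ± 0.381 CPM in CS.

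The other 4 genes of the cluster were at or near 0. Mmp1b and the tooth enamel protease gene Mmp20 had 0 counts in all 6 libraries, which allows up to 0.185 CPM in a library by counting error alone, and Mmp10 had 2 counts in all. Mmp7, matrilysin, a protease of mucosal epithelia, had 0, 36 and 1 counts in SS-31H_CS replicates 1, 2 and 3 and 0 in each CS library. That signal came almost wholly from SS-31H_CS replicate 2. Mmp1a, also in this region, is annotated as a polymorphic pseudogene in GENCODE M21 and so is no member, and it had 0 counts.

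RefSeq promoter windows (GRCm38.p6, 250 bases before to 50 after the gene start) were at hand for 35 of the 50 members. The letters TGANTCA, the core to which AP-1 (FOS and JUN dimers) binds and a classical element of inducible MMP promoters, were searched on both strands. They occurred in the windows of 7 of the 9 cluster genes (Mmp1b, Mmp3, Mmp7, Mmp10, Mmp12, Mmp13 and Mmp20) and of 0 of the 26 other members with a window, where 7.81% of all 32851 windows held them. TATAAA was found in 8 of the 9 and in 3 of the 26, against 13.6% of all windows. A gene was counted if any of its windows matched, while the shares of all are per window. Of the cluster genes, Mmp7 and Mmp12 each had a further window with neither match. The stretch from 80 bases before to 20 after the start is shown for 5 cluster genes, 5′ to 3′ on the plus strand, because it sets genes with and without the AP-1 letters beside levels from near 0 to abundant. Capitals mark TGANTCA and TATAAA on either strand.
Mmp3, chr9:7445742-7445841: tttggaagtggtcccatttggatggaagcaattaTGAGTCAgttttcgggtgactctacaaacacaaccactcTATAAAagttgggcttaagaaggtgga
Mmp10, chr9:7502262-7502361: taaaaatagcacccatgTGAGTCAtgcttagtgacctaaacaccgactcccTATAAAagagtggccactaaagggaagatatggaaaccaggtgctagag
Mmp12, chr9:7347294-7347393: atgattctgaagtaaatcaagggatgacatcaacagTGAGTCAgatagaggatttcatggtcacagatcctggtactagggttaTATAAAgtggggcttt
Mmp13, chr9:7272434-7272533: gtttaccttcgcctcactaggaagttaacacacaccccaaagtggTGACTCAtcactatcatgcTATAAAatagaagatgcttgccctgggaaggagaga
Mmp8, chr9:7558349-7558448: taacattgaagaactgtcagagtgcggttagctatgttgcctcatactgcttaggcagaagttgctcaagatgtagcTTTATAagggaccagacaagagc

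The AP-1 letters began 46 bases before the RefSeq start of Mmp3, 63 before that of Mmp10, 44 before the second of the 2 RefSeq starts of Mmp12 (the one shown) and 35 before that of Mmp13. The stretch of Mmp12 shown was picked for holding the letters, since its other window has none. The letters stand before both expressed and silent genes: before Mmp3, at 12.1 ± 5.24 FPKM in SS-31H_CS and 21.4 ± 2.16 FPKM in CS, and before Mmp20 at 0 FPKM, while no match was in the window of Mmp8. A match describes letters in a window and shows no binding.

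Of the ADAMTS genes that cut aggrecan and versican, the large proteoglycans of the matrix, Adamts4, Adamts9 and Adamts15 were lower and Adamts5 and Adamts20 were higher in SS-31H_CS at an unadjusted p under 0.05, and 0 of the 5 passed after adjustment in edgeR. DESeq2 passed Adamts4, Adamts9, Adamts15 and Adamts20. Adamts15 was at 93.9, 96.7 and 65.3 CPM in SS-31H_CS replicates 1, 2 and 3, against 211, 159 and 293 CPM in CS replicates 1, 2 and 3 (ENSMUSG00000033453, chromosome 9, 30899155 to 30922452). The groups were far apart, with the lowest CS library well above the highest SS-31H_CS library. The fitted log2 change was -1.37 with an SE of 0.24 (adjusted p = 0.080), with -1.57 to -1.12 when 1 library was left out. Adamts15 was the ADAMTS gene with the lowest adjusted p and at 8.39 ± 1.83 FPKM in SS-31H_CS and 20.8 ± 5.76 FPKM in CS it was also among the more abundant.

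Adamts4, aggrecanase 1 (ENSMUSG00000006403, chromosome 1, 171250421 to 171260637), had 3, 13 and 4 counts in SS-31H_CS and 45, 38 and 94 counts in CS. That was 0.177, 0.794 and 0.235 CPM in SS-31H_CS against 2.66, 2.18 and 5.80 CPM in CS, without overlap. SS-31H_CS replicate 1 was at the floor of 3 counts, so the size of the difference was loosely fixed, with a log2 fold change of -3.12 (95% interval -4.54 to -1.70, adjusted p = 0.0889). Adamts5, aggrecanase 2, was at 21.8, 19.7 and 25.3 CPM in SS-31H_CS against 17.7, 16.9 and 14.6 CPM in CS. The log2 fold change was 0.44 with an SE of 0.15 (adjusted p = 0.192), again without overlap.

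Adamts9, which cuts versican, was at 22.8, 17.3 and 19.6 CPM in SS-31H_CS and 28.4, 27.3 and 53.4 CPM in CS. CS replicate 3 set much of that difference, since the log2 fold change of -0.87 with an SE of 0.26 (adjusted p = 0.165) was -0.49 without it. Exons of A730049H05Rik and Gm15737, on the other strand, cover 12% of its exon length, and A730049H05Rik was at a mean of 0.178 CPM in SS-31H_CS and 1.41 CPM in CS. Adamts20, its closest relative in the family, was scarce, with 28, 42 and 64 counts in SS-31H_CS against 8, 17 and 15 counts in CS. Its log2 difference was 1.74 with an SE of 0.43 (adjusted p = 0.121). Adamts1, the highest of the versican-cutting proteases per length (26.7 FPKM over all libraries), was at 126, 110 and 136 CPM in SS-31H_CS and 129, 132 and 223 CPM in CS. Apart from CS replicate 3 its libraries lay close together, and its log2 fold change of -0.38 with an SE of 0.22 (adjusted p = 0.388) was -0.08 without that library. Adamts8 was at 61.3 ± 2.58 CPM in SS-31H_CS and 60.7 ± 14.0 CPM in CS.

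**Figure D4:**
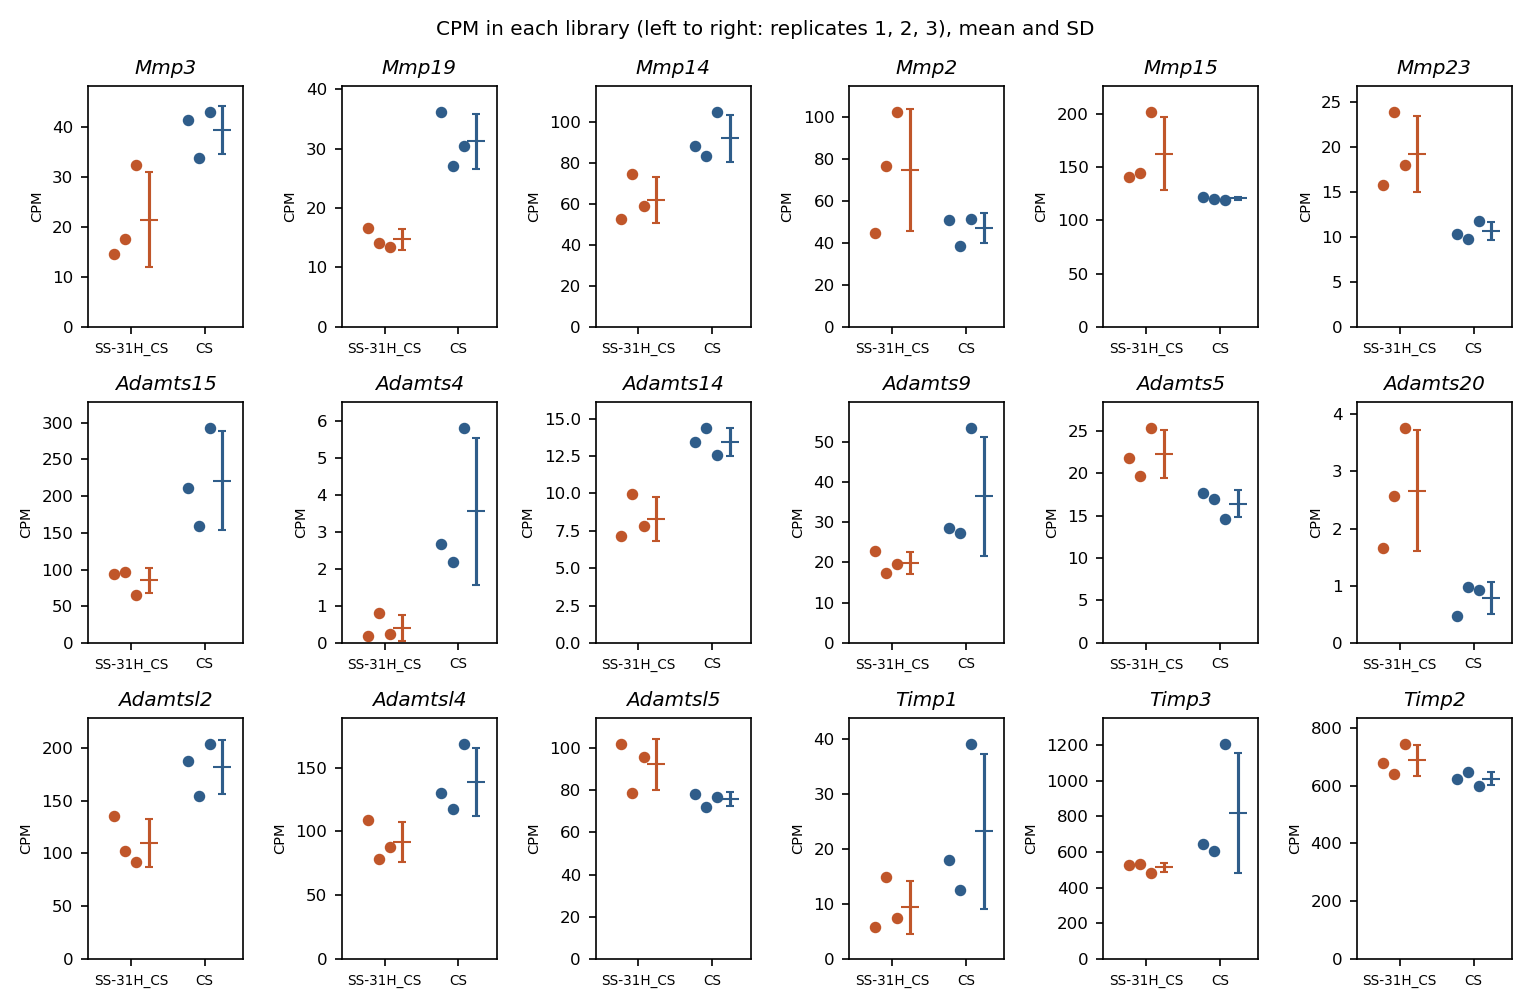
CPM of 18 members in each library (points, replicates 1 to 3 from left to right within a group), with mean and SD beside them, SS-31H_CS left and CS right, axes from 0. CS replicate 3 stands above the other CS libraries in Timp1, Timp3, Adamts4 and Adamts9.

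The procollagen-trimming proteases, which remove the amino-terminal propeptide of fibrillar collagens, are Adamts2, Adamts3 and Adamts14. Adamts14 was at 7.15, 9.96 and 7.82 CPM in SS-31H_CS against 13.5, 14.4 and 12.5 CPM in CS, without overlap. On the log2 scale the difference was -0.70 with an SE of 0.18 (adjusted p = 0.132), with -0.85 to -0.61 when 1 library was left out. Adamts2, the highest of the group per length, was at 57.8 ± 9.89 CPM in SS-31H_CS and 67.0 ± 12.1 CPM in CS, and Adamts3 at 1.05 ± 0.474 CPM in SS-31H_CS and 1.62 ± 0.386 CPM in CS, both with overlapping groups. Adamts10 and Adamts6, which act on fibrillin microfibrils, also had overlapping groups. Adamts6 was at 6.31 ± 1.53 CPM in SS-31H_CS and 6.74 ± 2.31 CPM in CS. Adamts10 was at 360, 325 and 310 CPM in SS-31H_CS against 330, 311 and 214 CPM in CS, with CS replicate 3 lowest and a log2 fold change of 0.22 (95% interval -0.18 to 0.61).

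The remaining ADAMTS genes were low. Adamts7 and Adamts12, which cut cartilage oligomeric matrix protein, were at 7.28 ± 0.451 and 1.45 ± 0.390 CPM in SS-31H_CS and at 5.71 ± 1.74 and 2.42 ± 0.524 CPM in CS. The Adamts12 groups did not overlap (log2 fold change -0.73, adjusted p = 0.286). Adamts13, the von Willebrand factor protease that is made mainly in liver, had 9 to 11 counts in SS-31H_CS and 5 to 15 counts in CS. Adamts17 was at 2.64 ± 0.725 CPM in SS-31H_CS and 3.67 ± 1.05 CPM in CS. Adamts16, Adamts18 and Adamts19 did not reach the count needed for testing, with at most 13 counts in any library.

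Of the Adamtsl genes, which encode microfibril-binding proteins, Adamtsl2 and Adamtsl4 were lower and Adamtsl5 was higher in SS-31H_CS at an unadjusted p under 0.05. Adamtsl2, whose loss in humans causes geleophysic dysplasia, was at 135, 102 and 91.4 CPM in SS-31H_CS replicates 1, 2 and 3, against 187, 154 and 204 CPM in CS replicates 1, 2 and 3. The fitted log2 change was -0.73 with an SE of 0.17 (adjusted p = 0.114), and -0.92 to -0.62 when 1 library was left out. Adamtsl4, which binds fibrillin 1, was at 109, 78.7 and 87.8 CPM in SS-31H_CS against 130, 118 and 169 CPM in CS. The log2 fold change was -0.60 with an SE of 0.17 (adjusted p = 0.153). Neither gene had overlapping groups. Adamtsl5 was at 102, 79.0 and 95.9 CPM in SS-31H_CS and 78.3, 72.3 and 77.0 CPM in CS, a narrow separation with a log2 fold change of 0.28 with an SE of 0.12 (adjusted p = 0.269). Adamtsl1 and Adamtsl3 had log2 fold changes of -0.06 (95% interval -0.35 to 0.22) and -0.07 (-0.73 to 0.58).

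Among the inhibitors, Timp1 and Timp3 were lower at an unadjusted p under 0.05 and neither passed after adjustment in edgeR, while DESeq2 passed Timp1 (adjusted p = 0.0363, with 0.0363 to 0.624 across all alternatives). Timp1, an inducible and secreted inhibitor (ENSMUSG00000001131, chromosome X, 20870166 to 20874735), was at 5.85, 14.9 and 7.41 CPM in SS-31H_CS, against 18.0, 12.6 and 39.2 CPM in CS. SS-31H_CS replicate 2 lay above CS replicate 2, so the groups overlapped. Its log2 difference was -1.31 with an SE of 0.47 (adjusted p = 0.216), and it was -0.71 without CS replicate 3.

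Timp3, the inhibitor that is bound to the matrix and also blocks ADAMTS4, ADAMTS5 and ADAM17 (ENSMUSG00000020044, chromosome 10, 86300372 to 86349506), was at 524, 533 and 482 CPM in SS-31H_CS and 646, 605 and 1206 CPM in CS. The groups did not overlap, but CS replicate 3 held nearly as much as the other CS libraries together. On the log2 scale the difference of -0.68 with an SE of 0.25 (adjusted p = 0.230) was -0.29 without that library. Exons of Syn3, on the other strand, cover 21.3% of the Timp3 exon length, and Syn3 was at a mean of 2.06 CPM in SS-31H_CS and 1.82 CPM in CS. Timp4 showed the same high CS replicate 3, with 3.19, 6.29 and 3.59 CPM in SS-31H_CS against 4.90, 4.07 and 10.9 CPM in CS, and its log2 fold change of -0.60 (adjusted p = 0.481) was -0.05 without it. Timp2, which also helps MT1-MMP activate MMP2, was the steadiest inhibitor, at 678, 641 and 745 CPM in SS-31H_CS and 625, 647 and 601 CPM in CS, with a 95% interval of -0.13 to 0.41 for the log2 difference.

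In the same CS replicate 3, summed CPM of 8 mesothelial markers was 1905, where the other CS libraries had 830 and 890 and the SS-31H_CS libraries 748 to 1057. Krt19 was the one marker lower in SS-31H_CS at an unadjusted p under 0.05. Of the 8, 4 had a log2 fold change below 0 and 4 above, with a median of 0.05. Summed CPM of 10 endothelial markers was 3419 to 4488 in SS-31H_CS and 4640 to 5915 in CS, with CS replicate 3 the lowest of its group. Cdh5, Pecam1, Cldn5 and Vwf (40%) were lower at an unadjusted p under 0.05, where 8.23% of all tested genes were. In neither list was a marker at zero. The part of either cell type in the Timp1, Timp3 and Adamts9 values was not tested.

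**Figure D5:**
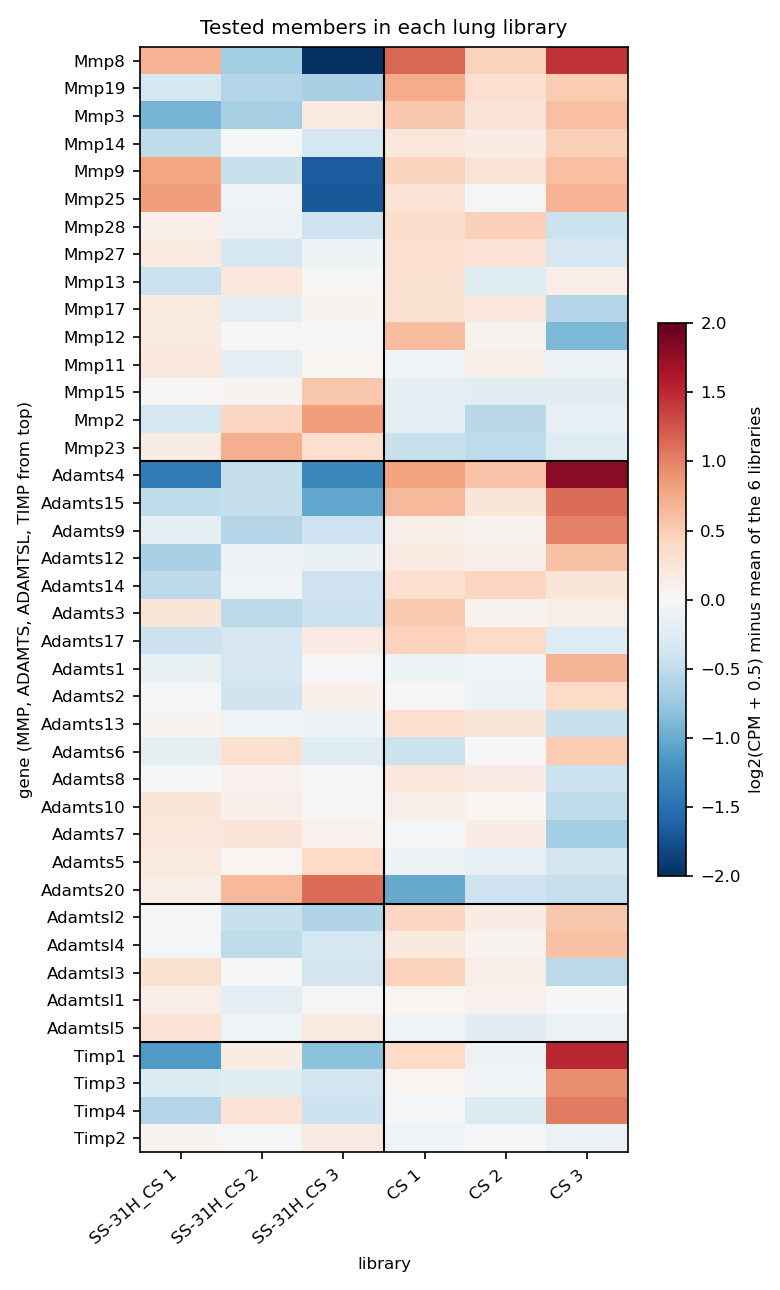
Level of the 40 tested members in each library as log2(CPM + 0.5) minus the mean of the 6 libraries, SS-31H_CS at left, families from top to bottom. CS replicate 3 is highest in 15 of the 40, among them Timp1, Timp3, Timp4 and Adamts4, and SS-31H_CS replicate 3 is lowest in Mmp8, Mmp9 and Mmp25.

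Genes around these families were read from lists chosen for their link to them. Of 22 matrix substrates, 20 were tested. In edgeR 1 of them, the thrombospondin gene Thbs1, fell at an adjusted p under 0.05, where 0.153% of all tested genes passed. It was at 160, 162 and 131 CPM in SS-31H_CS and 331, 321 and 415 CPM in CS (log2 fold change -1.23, adjusted p = 0.0467), without overlap. Thbs1 was not followed in the alternatives, where the count of all genes passing was 0 to 939. At an unadjusted p under 0.05, 12 of the 20 were lower and 2 (Dcn and Col1a2) were higher, where 8.23% of all tested genes were lower and 9.93% higher. Dcn, Col1a1, Col1a2 and Lum were also counted as fibroblast markers, Vwf as an endothelial marker and Acan as a cartilage marker. The median log2 fold change of the 20 was -0.73, beside 0.01 for all genes. The summed CPM of the substrates was 4987, 4655 and 4196 in SS-31H_CS replicates 1, 2 and 3, against 6700.4, 6517 and 9884 in CS replicates 1, 2 and 3. CS replicate 3 stood far above the other CS libraries in that sum, as it did in the basement membrane collagen gene Col4a1 (721, 646 and 597 CPM in SS-31H_CS, against 980, 930 and 2259 CPM in CS). Fn1 (log2 fold change -0.85, adjusted p = 0.0926), the elastin gene Eln (-1.32, adjusted p = 0.0986) and the fibrillin gene Fbn1 (-0.76, adjusted p = 0.0994) did not pass. Vcan, the versican substrate of ADAMTS1, 4, 5, 9, 15 and 20, was at 20.6, 13.6 and 9.70 CPM in SS-31H_CS and 26.5, 22.5 and 34.0 CPM in CS (log2 fold change -0.92, adjusted p = 0.164). Acan, the aggrecan gene, had 1 count in all 6 libraries, and 10 cartilage markers, 1 of them with enough counts to be tested and Col9a1 at 0 in all libraries, summed to 3.12 to 4.28 CPM in SS-31H_CS and 3.21 to 4.01 CPM in CS.

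Of 22 activators and brakes of matrix proteases, 18 were tested and 0 passed after adjustment by edgeR. At an unadjusted p under 0.05, 5 were lower in SS-31H_CS and 1, the protease nexin gene Serpine2, was higher, beside the same shares of all genes as for the substrates. Furin, the convertase that activates MT-MMPs, MMP11 and ADAMTS proteases, was at 163, 142 and 120 CPM in SS-31H_CS against 208, 192 and 223 CPM in CS (log2 fold change -0.55, adjusted p = 0.124). Lrp1, the receptor that clears MMPs, ADAMTS proteases and TIMPs from the matrix, was at 896, 764 and 621 CPM in SS-31H_CS and 1042, 1014 and 1168 CPM in CS (-0.50, adjusted p = 0.177). In both genes the groups did not overlap. Plaur, the urokinase receptor, was at 66.0, 50.2 and 47.8 CPM in SS-31H_CS and 79.3, 61.1 and 159 CPM in CS (-0.87, adjusted p = 0.230), with overlapping groups and CS replicate 3 highest. The membrane-anchored MMP inhibitor Reck was at 97.9, 89.2 and 85.1 CPM in SS-31H_CS and 90.4, 90.6 and 57.4 CPM in CS.

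The sister family of ADAM genes, which includes the sheddases that release membrane proteins, had 13 tested members, 0 of them past the adjusted threshold by edgeR. At an unadjusted p under 0.05, 3 were lower (Adam9, Adam15 and the TNF-releasing Adam17) and 4 were higher (Adamdec1, Adam28, Adam22 and Adam33), where 8.23% of all tested genes were lower and 9.93% higher. Adamdec1 was at 5.67, 7.64 and 9.88 CPM in SS-31H_CS against 3.42, 4.13 and 2.78 CPM in CS (log2 fold change 1.16, adjusted p = 0.111), and Adam28 at 8.69, 11.7 and 23.1 CPM in SS-31H_CS against 5.61, 7.11 and 5.25 CPM in CS (1.27, adjusted p = 0.144). Adam9 was at 154, 152 and 147 CPM in SS-31H_CS and 192, 182 and 222 CPM in CS (-0.40, adjusted p = 0.149). Adam15 was lower by a larger step (-0.72, adjusted p = 0.182).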

How the data were processed

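RNA from 6 lung libraries was sequenced by the authors, who deposited raw read counts per Ensembl gene (not normalized) and, in a second table, FPKM of those libraries, per the file headers. The submitters' processing notes name cutadapt 1.9.1, HISAT2 2.0.1, HTSeq 0.6.1 and GRCm38. The annotation, gene lengths, strand setting and filters are not given in the sources used here. Symbols and coordinates came from GENCODE M21 (GRCm38) by Ensembl identifier: 55480 of 55573 genes matched. Promoter letters came from RefSeq on GRCm38.p6.

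Counts were tested in edgeR 4.0.16 (R 4.3.3, quasi-likelihood, TMM, low-count filter with a minimum count of 10 and a minimum total of 15, two-sided, Benjamini-Hochberg over all 16965 genes tested), and members were read from that fit. SE is the log2 fold change over the square root of F. CPM use TMM-scaled library sizes, and floors cover counting error only. Tests were checked on simulated data. Replicates differed beyond sampling noise. Members and lists were chosen with earlier results of these data known. Named genes are members with an unadjusted p under 0.05, the 3 highest by FPKM per family and 18 fixed genes, with up to 4 per list of other genes, of which 1 is not reported here. Other members are also given so that all are accounted for, and further list genes named were chosen after their values were seen. DESeq2 1.42.0, limma 3.58.1 (voom, and trend on FPKM) and other filters, scalings and sample sets were the alternatives.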

Additional observations from a re-analysis of the deposited data

How the results depend on the processing

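The count of 0 members past the adjusted threshold by edgeR (17 at an unadjusted p under 0.05) was 12 by DESeq2, 8 with no low-count filter and 1 (Mmp3) without replicate 3 of both groups, and 0 in each other alternative run. Over all genes DESeq2 passed 939 of 29395, and the fit with no low-count filter 648 of 29410. Without replicate 3 of both groups 36 of 17132 passed. DESeq2 passed Mmp3, Mmp14, Mmp19, Mmp23, Adamts4, Adamts9, Adamts14, Adamts15, Adamts20, Adamtsl2, Adamtsl4 and Timp1, with the same sign as edgeR. The 11 lower members at an unadjusted p under 0.05 were 8 to 13 over all alternatives, with 32 to 48 members tested. In either direction the share of all genes at that threshold ran from 10.5% (DESeq2) to 19.1% (without SS-31H_CS replicate 1). The 6 higher ones were 2 to 5 with single libraries left out (2 without SS-31H_CS replicate 3, 3 without CS replicate 1 or CS replicate 2) and 2 without replicate 3 of both groups. The median log2 fold change of tested members was -0.37 to -0.19 with single libraries left out. It was -0.17 on log2(FPKM + 1), -0.19 on log2(FPKM + 0.1) and -0.028 on log2(FPKM + 1) with no FPKM filter, where 48 members entered in place of 32.

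Over all genes, the count of 26 changed genes was 12 with library size alone, 648 with no low-count filter, 939 by DESeq2, 6 by limma voom, and 6, 5 and 4 in the FPKM fits with a pseudocount of 1, of 0.1 and of 1 unfiltered. It was 1 to 15 with single libraries left out. With the replicate number as a block it was 0, with 0 members. In that fit 16 of the 40 members tested were at an unadjusted p under 0.05, where 15.8% of all genes were. Deviations of same-numbered libraries from their group means had correlations of 0.02, 0.03 and -0.08 over all tested genes. Of the 3, 1 correlated best with its own number. On the second principal component both replicate 3 libraries lay on the same side (-25.8 in SS-31H_CS and -20.5 in CS), and on the first at opposite ends. Such deviations can cancel in 1 correlation, and whether same-numbered libraries share more than a number was not tested.

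Signs turned for Mmp12 by DESeq2 (-0.0023), without SS-31H_CS replicate 1 (-0.06), without CS replicate 3 (-0.34) and without replicate 3 of both groups (-0.29), for Mmp13 without SS-31H_CS replicate 1 (0.050), for Adamts13 without CS replicate 1 (0.037) and for Timp4 without replicate 3 of both groups (0.077), and in no other named member. With single libraries left out, Mmp12 ran from -0.34 to 0.45, Mmp13 from -0.51 to 0.050 and Adamts13 from -0.55 to 0.037. The cause was not tested. Adamts4, Adamts13, Adamts20 and Mmp13 were each below 100 counts in every library.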
